A study of Arabidopsis thaliana with 4 samples.

Results

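Transcript levels of atprmt3 seedlings, which carry a mutation in the arginine methyltransferase gene PRMT3, were compared with those of the Col wild type of Arabidopsis thaliana. The library carrying the genotype label atprmt3 was taken, which is 1 of the 4 libraries of the study. The others were 2 Col libraries and 1 library of rps2a2b, a mutant named after genes of the ribosomal protein RPS2. All seedlings were 12 days old, were harvested whole, and had grown on MS medium with 1% sucrose at 22 °C in cycles of 16 h light and 8 h dark. The labels do not describe the mutant alleles, and they do not say how many plants were pooled. Genes were described across the whole transcriptome, with weight on those that differed in atprmt3 and not in rps2a2b. Of 33341 genes listed, 15260 had a mean level of at least 5 CPM (counts scaled to the library size) over the 3 genotypes and are called measured here.

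PRMT3 enzymes add methyl groups to arginine residues, and in yeast and animals PRMT3 binds the small-subunit ribosomal protein uS5, which plants call RPS2. Ribosomes are assembled in the nucleolus, where a long precursor RNA is cut at its spacers to release the 18S, 5.8S and 25S ribosomal RNAs (rRNA) while ribosomal proteins join. Faults in this assembly are known as nucleolar stress, and the title of the series places PRMT3 and RPS2B in that process.

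Totals of reads on genes ranged from 15194770 to 18650053 over the 4 libraries. Between both Col libraries the differences were within counting noise: the chi-square per gene averaged 0.989 where noise alone gives 1, and 7 measured genes were at least 2-fold apart. They were summed and treated as 1 sample, so every genotype had n = 1 and no difference below has a replicate check. Values in parentheses after a log2 difference are 95% Clopper-Pearson counting intervals of the ratio. These intervals cover counting error and no variation between plants, and copied reads would widen them. In the atprmt3 library 203 genes had 1 read and 314 had 3 reads.

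PRMT3 itself (AT3G12270, chromosome 3, 3910481 to 3913376 in TAIR10.1, plus strand) gave 132 reads in atprmt3, against 237 and 254 in Col and 315 in rps2a2b. In CPM the gene was lowest in atprmt3 (6.99), followed by Col (16.2) and rps2a2b (19.6). The level was 2.32-fold lower than in Col, a ratio of 0.431 (0.352 to 0.523), so reads from the locus were reduced and not absent. The log2 difference was -1.21 from Col and -1.48 (-1.79 to -1.19) from rps2a2b. AT3G12280 overlaps PRMT3 on the opposite strand. The 8 other PRMT genes measured lay between -0.46 in PRMT6 (AT3G20020) and 0.46 in PRMT4B (AT3G06930). RPS2A (AT1G58380) had 30.7 CPM in atprmt3 against 21.6 in Col and 10.4 in rps2a2b, and RPS2D (AT3G57490) had 194 and 157 reads in Col, 416 in atprmt3 and 380 in rps2a2b. RPS2C (AT2G41840), with the most counted reads of the family, differed from Col by 0.22 (0.17 to 0.26). RPS2B (AT1G59359) had 0 reads in every library. Reads with several alignments were not counted, so the levels of RPS2A and RPS2B are uncertain, and their share of such reads was not tested.

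In atprmt3, 487 measured genes (3.19%) were at least 2-fold higher and 303 (1.99%) at least 2-fold lower than in Col. At 1.5-fold the counts were 1642 higher (10.8%) and 1350 lower (8.85%). The median of all measured genes was -0.003. In rps2a2b, which is compared with the same Col libraries, 576 were at least 2-fold higher (3.77%) and 348 lower (2.28%). Directly against rps2a2b, a comparison without Col, 110 genes were at least 2-fold higher in atprmt3 (0.721%) and 163 lower (1.07%), and at 1.5-fold 640 were higher (4.19%) and 727 lower (4.76%). A gene was called set apart where atprmt3 differed at least 2-fold from Col and at least 2-fold from rps2a2b in the same direction while rps2a2b lay within 1.5-fold of Col. By this rule 8 genes were higher in atprmt3 (0.0524%) and 26 lower (0.17%), PRMT3 being 1 of the lower genes. With 1.5-fold in place of 2-fold the counts were 124 (0.813%) and 210 (1.38%). With the whole counting interval past 2-fold in both comparisons, GRP5 and IRT1 remained among the higher genes, and AT2G16005, AT5G06940, FRL2 and AT2G20210 among the lower. GRP5 and IRT1 were below 5 CPM in Col and rps2a2b and passed the minimum only through atprmt3. ESM1 was the higher gene nearest the threshold, at 1.01 above rps2a2b, and AT3G62260, at 0.97 above Col, lay just outside it. On the lower side AT4G19060 was just inside, with 239 and 204 reads in Col, 138 in atprmt3 and 236 in rps2a2b, and AT4G23440 was just outside at -0.99.

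**Figure D1:**
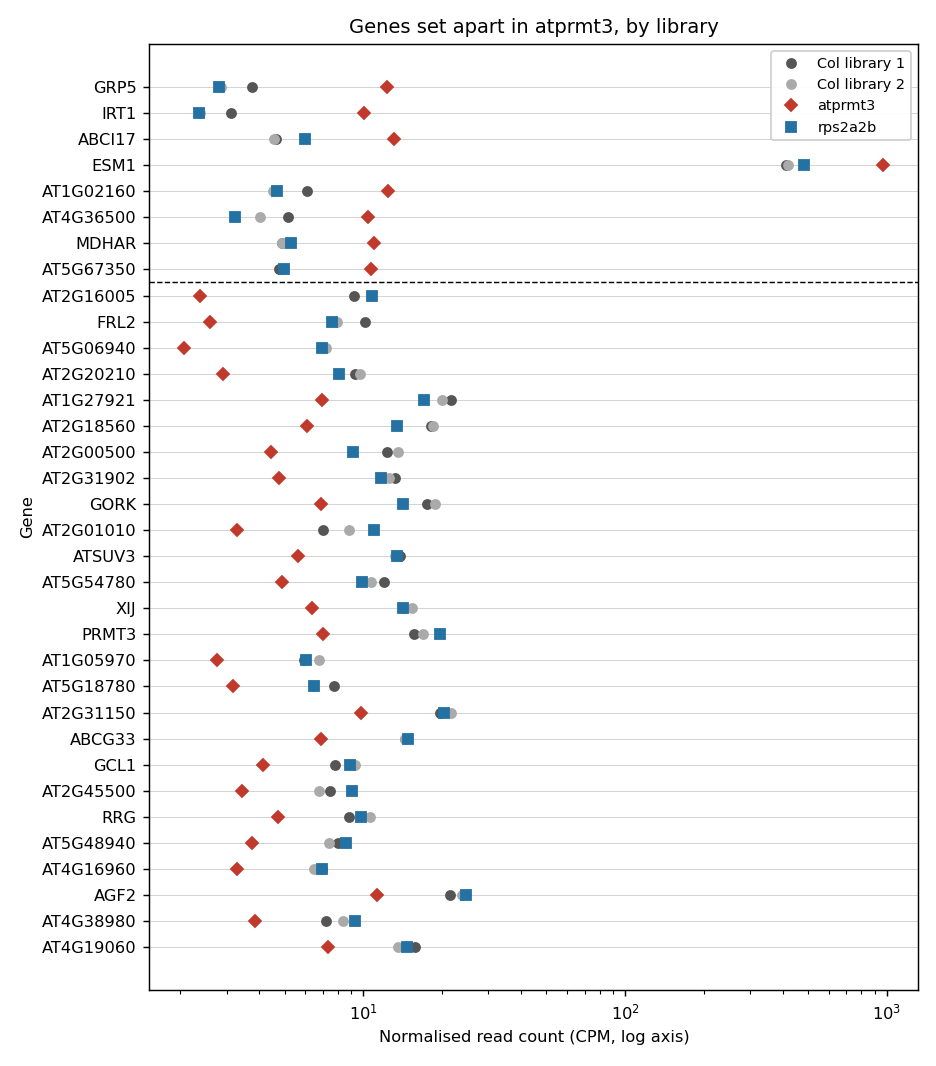
Normalised read counts (CPM, log axis) of the 34 genes set apart in atprmt3, with 1 mark for each library. Above the dashed line are the 8 higher genes and below it the 26 lower genes; in every row the atprmt3 mark lies outside the marks of the other 3 libraries, which is what the rule selects, and most rows lie near 10 CPM while ESM1 lies far to the right.

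Among the genes set apart higher were the iron importer gene IRT1 and the glucosinolate gene ESM1. GRP5 (AT3G20470, chromosome 3, 7140294 to 7141353), for a glycine-rich protein, had 57 and 43 reads in Col, 233 in atprmt3 and 45 in rps2a2b. Its log2 difference was 1.89 (1.56 to 2.25) from Col and 2.13 (1.68 to 2.64) from rps2a2b. IRT1 (AT4G19690, chromosome 4, 10707344 to 10709015), the main iron importer of the root epidermis, had 47 and 36 reads in Col, 189 in atprmt3 and 38 in rps2a2b. It stood 1.85 (1.49 to 2.26) above Col and 2.07 (1.57 to 2.63) above rps2a2b. ABCI17 (AT1G67940) stood 1.51 above Col, and AT1G02160, for a protein of the Cox19 family, 1.22. MDHAR (AT3G09940), whose enzyme recycles ascorbate, stood at 1.16, and AT4G36500 and AT5G67350, for uncharacterized proteins, at 1.18 and 1.13. The median mean level of the 8 genes was 6.95 CPM, close to the 5 CPM minimum, and only ESM1 among them was abundant. GRP5, IRT1, AT4G36500 and AT5G67350 were below 5 CPM in both Col and rps2a2b, so they were measured only because atprmt3 was high.

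Iron genes were followed as a list of 28, of which 15 were measured. Against Col 6 were at least 2-fold higher and 1 lower, and the median was 0.26, against 0.32 in rps2a2b. Among the higher ones IRT1, FER2 and VTL5 (AT3G25190) were below 5 CPM in Col, so that count depends on the filter. IRT1 passed it through atprmt3 and FER2 through rps2a2b, with 3.23 CPM in atprmt3 and 14.8 in rps2a2b. FRO2 (AT1G01580), the root reductase that supplies iron to IRT1, had 43 and 41 reads in Col, 123 in atprmt3 and 26 in rps2a2b, or 1.22 (0.82 to 1.65) above Col and 1.99 (1.39 to 2.68) above rps2a2b. IREG2 (AT5G03570), a vacuolar metal transporter of the root, had 6, 4, 41 and 9 reads in the same order, and the importer IRT2 (AT4G19680) had 5, 6, 34 and 17. These 3 genes were below the 5 CPM minimum and were named after their values had been seen. For FRO2 and IREG2, as for IRT1, the atprmt3 library held the highest level, while the rps2a2b values stayed within 2-fold of Col. FIT, the transcription factor needed for IRT1 and FRO2 expression, had 33 and 44 reads in Col and 34 in atprmt3, below the minimum as well.

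The ferritin genes, for proteins that store iron, were higher in both mutants. FER1 (AT5G01600) had 1010 and 1021 reads in Col, 2785 in atprmt3 and 1962 in rps2a2b, or 1.13 (1.05 to 1.22) above Col in atprmt3. FER3 (AT3G56090) and FER4 (AT2G40300) stood at 1.11 and 0.95, and all 3 were also higher in atprmt3 than in rps2a2b, by 0.27, 0.39 and 0.31. The seed ferritin FER2 (AT3G11050) ran the other way between the mutants, with 10 and 11 reads in Col, 61 in atprmt3 and 238 in rps2a2b. YSL1 (AT4G24120), a transporter of iron complexes, was 1.71 above Col. The reductase gene FRO4 (AT5G23980) was the lower member, with 379 and 415 reads in Col, 94 in atprmt3 and 185 in rps2a2b, or -2.39 (-2.72 to -2.09).

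**Figure D2:**
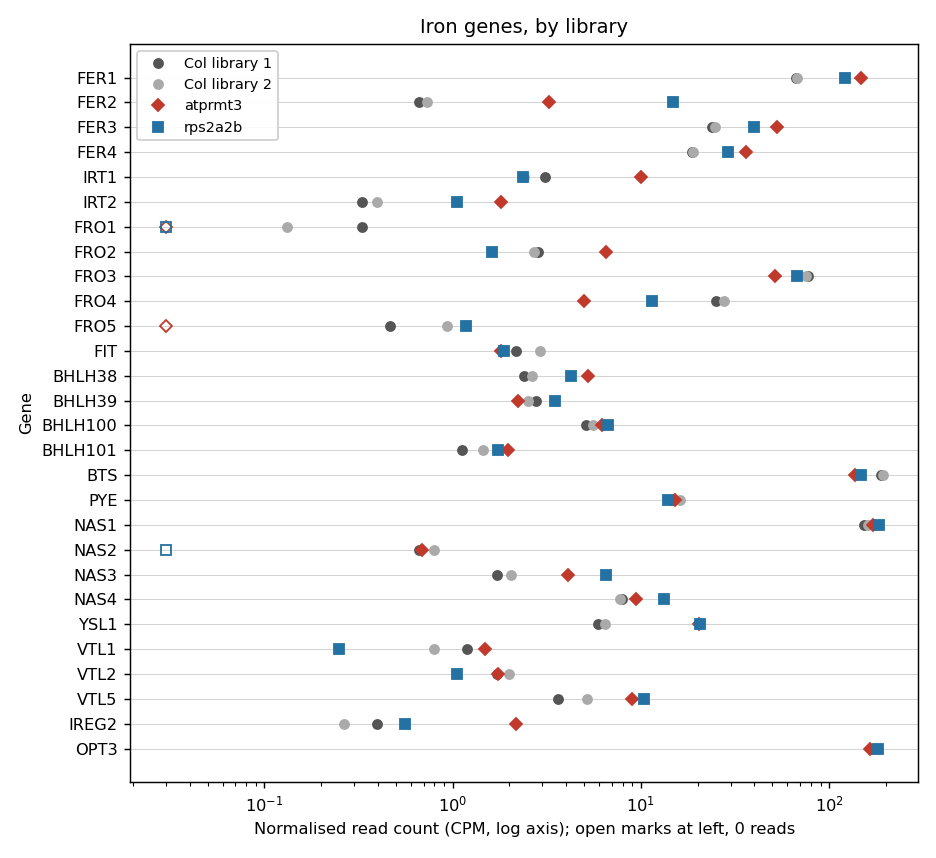
Normalised read counts (CPM, log axis) of the 28 iron genes, with 1 mark for each library and open marks at the left edge for 0 reads. The atprmt3 marks of IRT1, FRO2 and IREG2 lie to the right of all others, those of FER1, FER3 and FER4 lie slightly beyond rps2a2b, and that of FRO4 lies to the left.

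ESM1 (AT3G14210, chromosome 3, 4729399 to 4731847) was the most abundant gene set apart. Its protein shifts the breakdown of glucosinolates, the sulfur-rich defence compounds of the cabbage family, toward isothiocyanates. It had 6225 and 6313 reads in Col, 18334 in atprmt3 and 7770 in rps2a2b, which is 415, 971 and 483 CPM by genotype. The log2 difference was 1.23 (1.19 to 1.26) from Col and 1.01 (0.97 to 1.05) from rps2a2b. The myrosinases TGG1 (AT5G26000) and TGG2 (AT5G25980), which cleave glucosinolates, stood 0.29 and 0.55 above Col, and 0.30 and 0.44 above rps2a2b. ESP (AT1G54040), which directs breakdown toward nitriles, had 38.4 CPM in Col, 42.4 in atprmt3 and 19.5 in rps2a2b. Over the 28 measured glucosinolate genes the median was 0.31, against 0.19 in rps2a2b. Of them 24 were above and 4 below Col, 2 at least 2-fold higher and 0 lower. MAM3 (AT5G23020), a chain-elongation enzyme, was the other at least 2-fold higher, at 1.48, and it stood at 1.62 in rps2a2b.

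Genes of the abscisic acid, cold and drought response centred on 0.25 (their median), against 0.05 in rps2a2b. Of 24 measured, 20 lay above Col, 3 at least 2-fold higher and 0 lower. The chloroplast cold-protection gene COR15A (AT2G42540) had 7245 and 7199 reads in Col, 16010 in atprmt3 and 8314 in rps2a2b. It stood 0.83 (0.79 to 0.86) above Col and 0.71 (0.68 to 0.75) above rps2a2b. RD22 (AT5G25610), a drought-response gene, was 0.60 above Col, against 0.11 for rps2a2b. The lipid-transfer protein genes LTP3 (AT5G59320) and LTP4 (AT5G59310) stood at 1.90 and 1.36 and were higher again in rps2a2b, at 2.12 and 2.74.

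Genes set apart lower were mostly weakly expressed, with a median mean level of 8.39 CPM against 24.1 over all measured genes, and none reached a mean of 20 CPM. AT2G16005 (chromosome 2, 6959092 to 6960216), for a protein with an MD-2-related lipid recognition domain, had 139 and 162 reads in Col, 45 in atprmt3 and 174 in rps2a2b, or -2.05 (-2.55 to -1.61) from Col. AT5G06940, for a leucine-rich repeat receptor-like kinase, had 108 and 109 reads in Col, 39 in atprmt3 and 112 in rps2a2b, at -1.78 (-2.33 to -1.30). FRL2 (AT1G31814), a relative of the flowering regulator FRIGIDA, had 153, 120, 49 and 122 reads in that order, at -1.79 (-2.27 to -1.36). In each the atprmt3 count was below all 3 other counts, which is what the rule selects.

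Further lower genes were the outward potassium channel of guard cells GORK (AT5G37500) at -1.39, the glycosyltransferase gene AT2G18560 at -1.58, and AT2G20210, for a protein of the RNI-like superfamily, at -1.69. ATSUV3 (AT4G14790), an RNA helicase gene, had 208 and 199 reads in Col, 106 in atprmt3 and 216 in rps2a2b, at -1.26 (-1.58 to -0.95). The myosin gene XIJ (AT3G58160) stood at -1.21 and AT1G05970, for an RNA-binding protein of the RRM family, at -1.20. AT1G27921 and AT2G31902 are non-coding RNA genes that overlap protein-coding genes on the opposite strand, at -1.58 and -1.42. An annotated gene lay on the opposite strand of 12 of the 26 lower genes (46.2%), against 28.8% of all measured genes. Reads of overlapping genes cannot be fully separated where the strand setting of the counting is unknown, and leaving out overlapping genes reduced the count from 26 to 12. AT2G01010 is an 18S rRNA gene whose copies elsewhere are nearly identical, so its value of -1.26 is uncertain.

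Reads of 3 genes were at most 3 in atprmt3 while Col had at least 60 in sum and rps2a2b at least 30. AT2G06845 (chromosome 2, 2753443 to 2756008, plus strand), annotated as a beta-galactosidase related protein, had 1285 and 1301 reads in Col, 0 in atprmt3 and 809 in rps2a2b. Against a floor of 3 reads it was at least 538-fold lower than Col. The non-coding RNA gene AT2G05015, which overlaps its start on the opposite strand, had 78, 68, 0 and 86 reads and was at least 30.4-fold lower. XTH4 (AT2G06850), the next measured gene downstream, for a cell-wall enzyme, had 1366 and 1457 reads in Col, 3126 in atprmt3 and 1426 in rps2a2b, or 0.83 (0.75 to 0.90) above Col. Of 11 other genes measured within 300 kb, 0 were at least 2-fold from Col, and they ranged from -0.48 to 0.83. Among genes measured there, reads were absent from AT2G06845 alone, and whether the DNA is present in the mutant was not tested.

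The last of the 3, AT1G15825, for a hydroxyproline-rich glycoprotein family protein, had 39 and 40 reads in Col, 3 in atprmt3 and 38 in rps2a2b. It lies on the opposite strand of AT1G15830, which stood at -1.61 in atprmt3. The pentatricopeptide repeat gene AT1G63400, chosen after its values were seen, had 48, 53, 0 and 25 reads and was at least 21.0-fold lower than Col. In the other direction, AT1G03710, for a cystatin family protein, and AT5G35760, annotated like AT2G06845 as beta-galactosidase related, each had 0 reads in both Col libraries, 32 in atprmt3 and 1 in rps2a2b. Each was at least 17.1-fold above Col on a floor of 3 reads over the Col libraries together. AT1G64795, chosen after its values were seen, had 3 and 0 reads in Col, 442 in atprmt3 and 130 in rps2a2b. It lies within the span of AT1G64790 on the opposite strand.

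Reads of the rRNA unit were examined because the libraries retained some of them. On chromosome 3 the annotation places an 18S gene (AT3G41768) and, after the 5.8S gene, AT3G06365, which it lists as an uncharacterized RNA gene. AT3G06365 spans 14200215 to 14204208 on the plus strand, the place of the last rRNA in the order named above. Whether its reads are that mature rRNA was not tested. Between them lies the non-coding RNA gene AT3G06355, which covers the 5.8S gene and the spacers on both sides of it. Those spacers are removed when the rRNA precursor is processed, and AT3G06355 takes in the last 178 bases before the 5.8S gene and 160 bases after it. Their sequences are shown in lower case because these stretches separate spacer from mature rRNA, with the adjoining 20 bases of the 5.8S gene in capitals.
Before the 5.8S gene, chr3:14199575-14199772, plus strand: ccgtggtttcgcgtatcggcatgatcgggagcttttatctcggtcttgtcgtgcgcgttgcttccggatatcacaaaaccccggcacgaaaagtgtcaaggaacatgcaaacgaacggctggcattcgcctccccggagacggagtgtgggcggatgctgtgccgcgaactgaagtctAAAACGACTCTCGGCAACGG
After the 5.8S gene, chr3:14199897-14200076, plus strand: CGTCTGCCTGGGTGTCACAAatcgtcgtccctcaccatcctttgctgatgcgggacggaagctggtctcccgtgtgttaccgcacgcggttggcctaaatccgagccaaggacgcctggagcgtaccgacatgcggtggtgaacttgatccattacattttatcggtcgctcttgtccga

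AT3G06355 had 338 and 319 reads in Col, 842 in atprmt3 and 725 in rps2a2b. It stood 1.04 (0.89 to 1.19) above Col in atprmt3 and 1.05 above Col in rps2a2b, and the mutants differed by -0.02. The 18S gene had 12695 and 12908 reads in Col, 12698 in atprmt3 and 11315 in rps2a2b, and was lower than Col in CPM in both mutants. Reads of AT3G06355 for every 1000 reads of the 18S gene were 26.6 and 24.7 in the Col libraries, 66.3 (61.8 to 71.1) in atprmt3 and 64.1 (59.4 to 69.1) in rps2a2b. Within the unit, then, the region with the spacers was higher relative to 18S in both mutants, beyond counting error. Reads of AT3G06365 for every 1000 reads of the 18S gene were 6492 in Col, 12691 in atprmt3 and 12648 in rps2a2b. The rise relative to 18S was thus not particular to the region with the spacers. AT3G06365 had the largest gain in CPM of all genes in atprmt3, from 5500 to 8536 CPM, and 8898 in rps2a2b. Given its place in the unit, whether this gain is one of mature rRNA was not tested. The 5.8S gene AT3G41979 lies inside AT3G06355 and is listed at 0 in every library. A read that overlaps both genes may have been set aside as ambiguous. The libraries were made from mRNA and repeated rRNA copies align to several places, so these reads are a remainder, and efficiency of rRNA removal was not tested. Reads of these 3 genes made up 0.609% and 0.621% of the Col libraries, 0.937% of atprmt3 and 1.02% of rps2a2b.

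**Figure D3:**
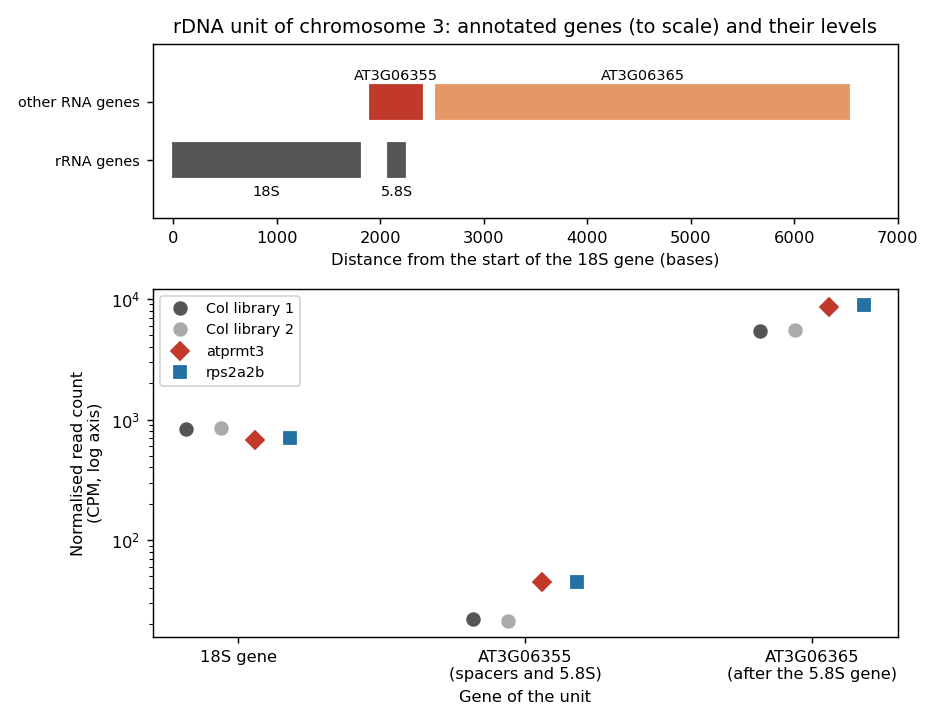
Top, annotated genes of the rRNA unit of chromosome 3, drawn to scale by distance in bases from the start of the 18S gene. Bottom, normalised read counts (CPM, log axis) of its 3 counted genes with 1 mark for each library: the mutants lie at 673 and 704 CPM below Col for 18S, and above Col for AT3G06355 and AT3G06365.

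Seed transcripts were higher than in Col but below rps2a2b. All 7 measured genes of seed storage and oil bodies were at least 2-fold above Col, with a median of 4.05, and all 7 were at least 1.5-fold below rps2a2b, with a median of -1.71. The cruciferin gene CRA1 (AT5G44120) had 369 and 416 reads in Col, 6440 in atprmt3 and 10781 in rps2a2b. Among 8 measured late embryogenesis genes, which protect drying seeds, 5 were at least 2-fold above Col and 0 below, with a median of 3.29, and all 8 were at least 1.5-fold below rps2a2b, with a median of -1.62. EM1 (AT3G51810) had 1 and 3 reads in Col, 282 in atprmt3 and 1792 in rps2a2b. ABI5 (AT2G36270), a transcription factor of seed maturation, was measured at 7.11, 8.85 and 15.1 CPM in Col, atprmt3 and rps2a2b. The atprmt3 library thus held an intermediate level of most of these transcripts, with RAB18 (AT5G66400) the exception at 182, 150 and 282 CPM. Except CRA1 and CRU3, the measured storage and oil body genes were below 5 CPM in Col and passed the minimum through the mutant libraries. The same held for the late embryogenesis genes other than RAB18 and ABI5. The counts and medians of both lists therefore depend on that filter.

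Of the glyoxylate cycle genes, by which seedlings turn seed oil into sugar precursors, MLS lay between Col and rps2a2b and ICL lay below both. ICL (AT3G21720, chromosome 3, 7652487 to 7656053), for isocitrate lyase, had 2448 and 2392 reads in Col, 1286 in atprmt3 and 5818 in rps2a2b. It stood -1.23 (-1.32 to -1.14) from Col in atprmt3 and 1.18 above Col in rps2a2b. MLS (AT5G03860), for malate synthase, had 113, 108, 305 and 1298 reads in that order, which is 1.14 (0.89 to 1.40) above Col in atprmt3. Both enzymes were lower in atprmt3 than in rps2a2b, by 2.41 and 2.32 on the log2 scale. ICL was 1 of 7 measured genes at least 1.5-fold below Col in atprmt3 and at least 1.5-fold above it in rps2a2b, and 3 genes showed the reverse. Of those 3, AT4G29020, for a glycine-rich protein, had 153 CPM in Col, 241 in atprmt3 and 31.8 in rps2a2b. ICL, MLS and AT4G29020 were chosen after their values were seen.

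**Figure D4:**
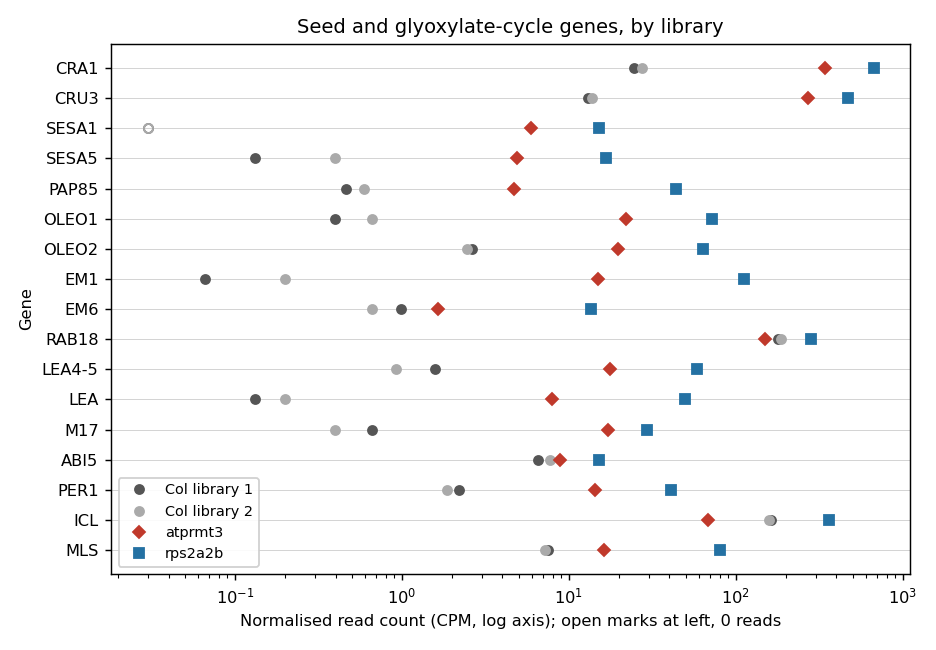
Normalised read counts (CPM, log axis) of the measured seed storage, oil body and late embryogenesis genes and of the glyoxylate cycle genes ICL and MLS, with 1 mark for each library and open marks at the left for 0 reads. For every gene the atprmt3 mark lies to the left of the rps2a2b mark, and for ICL and RAB18 it also lies to the left of Col.

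Ribosomal protein transcripts were moderately higher. Of 54 measured large-subunit genes, 47 lay above Col, 27 were at least 1.5-fold higher and 2 lower, 1 at least 2-fold higher, and the median was 0.56. Of 21 measured small-subunit genes, 20 lay above Col, 7 were at least 1.5-fold higher and 0 lower, and the median was 0.51. The rise was shared by rps2a2b, where the large- and small-subunit medians were 0.52 and 0.45. AT3G04840 of the small subunit had 4405 and 4378 reads in Col, 9295 in atprmt3 and 6828 in rps2a2b, at 0.76, and AT2G19730 of the large subunit stood at 0.95. These transcripts are short, and short transcripts as a class were higher: the median difference ran from 0.19 in the shortest of 5 equal length classes (up to 1255 bases) to -0.18 in the longest. In rps2a2b the same classes gave 0.09 and -0.11. With the median of its length class taken from each gene the list medians were 0.37 and 0.35. Ribosome biogenesis and nucleolar genes had a median of 0.23 over 31 measured, against 0.33 in rps2a2b, with 2 at least 2-fold higher and 0 lower. Those 2 were the nucleolin gene NUC2, named after its values were seen, at 2.76, and the fibrillarin gene FIB2 (AT4G25630), for an enzyme that methylates rRNA, at 1.14. NOP56 (AT1G56110) and NAP57 (AT3G57150), core proteins of small nucleolar ribonucleoproteins, stood at 0.73 and 0.61, while the helicase gene DRH1 (AT3G01540) stood at -0.64.

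Histone transcripts, which are made in quantity when DNA is replicated, were among the higher lists. Of 34 measured genes 29 lay above Col, 20 were at least 1.5-fold higher and 1 lower, 4 at least 2-fold higher, and the median was 0.71, or 0.52 after the medians of the length classes were taken off. HTA10 (AT1G51060), for histone H2A, had 611 and 622 reads in Col, 1418 in atprmt3 and 1312 in rps2a2b, at 0.88 (0.77 to 0.99), and HTB2 (AT5G22880), for H2B, stood at 0.74. The lower member was HIS1-3 (AT2G18050), a stress-inducible linker histone, at -0.84. The rps2a2b median was 0.44, and 25 of the 34 were higher in atprmt3 than in rps2a2b, 2 of them at least 1.5-fold. Many histone genes have near-identical copies, so single values are uncertain.

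Mitotic genes had a median of 0.68, against 0.83 in rps2a2b, with 8 of 29 measured at least 2-fold higher and 0 lower. TPX2 (AT1G03780), a spindle protein, had 233 and 233 reads in Col, 629 in atprmt3 and 735 in rps2a2b, at 1.11 (0.94 to 1.29). The kinesin gene HIK (AT1G18370) stood at 0.90, the anaphase activator CDC20.1 (AT4G33270) at 1.09 and the kinase CDKB2;1 (AT1G76540) at 0.68. DNA replication genes had a median of 0.42, against 0.60 in rps2a2b, with 2 of 23 at least 2-fold higher and 0 lower. The ribonucleotide reductase gene TSO2 (AT3G27060) stood at 0.90, the helicase subunit MCM2 (AT1G44900) at 0.66, and the sliding clamp genes PCNA1 (AT1G07370) and PCNA2 (AT2G29570) at 0.87 and 0.95. The motif AACGG, found on either strand of the 250 bases before the start in 22.3% of 15052 promoters of measured protein-coding genes, was present in 16 of 29 mitotic promoters (55.2%). Mitotic genes with it had a median of 0.72 and those without it 0.59.

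Phosphate starvation genes had a median of 0.58, against 0.44 in rps2a2b, with 5 of 12 measured at least 2-fold higher and 0 lower. AT4 (AT5G03545), an RNA induced by low phosphate, had 60 and 59 reads in Col, 402 in atprmt3 and 362 in rps2a2b, at 2.43 (2.14 to 2.74). PAP17 (AT3G17790), an acid phosphatase, stood at 1.15, the transporter PHT1;4 (AT2G38940) at 1.18 and the phosphate sensor SPX1 (AT5G20150) at 1.17. The motif GNATATNC, which the regulator PHR1 binds, was searched on either strand of the 250 bases before each start and found in 5.35% of all promoters and in 2 of the 12 of this list. Those 2 belonged to AT4 and to the phosphatase gene PS2 (AT1G73010), with 49 and 44 reads in Col, 310 in atprmt3 and 313 in rps2a2b. They were the highest of the 12 measured genes, and the median of the remaining 10 was 0.27. Both were below 5 CPM in Col and passed the minimum through the mutant libraries. Their place in the list, and the contrast with the other members, therefore depend on that filter. Their promoters are shown from RefSeq TAIR10.1, with the motif in capitals.
AT4, chr5:894332-894581, plus strand: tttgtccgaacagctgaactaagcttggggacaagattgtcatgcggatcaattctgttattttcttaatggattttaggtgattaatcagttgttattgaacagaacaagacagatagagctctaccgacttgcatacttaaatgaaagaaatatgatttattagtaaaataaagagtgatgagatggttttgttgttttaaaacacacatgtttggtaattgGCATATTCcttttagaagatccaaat
PS2, chr1:27466349-27466598, minus strand: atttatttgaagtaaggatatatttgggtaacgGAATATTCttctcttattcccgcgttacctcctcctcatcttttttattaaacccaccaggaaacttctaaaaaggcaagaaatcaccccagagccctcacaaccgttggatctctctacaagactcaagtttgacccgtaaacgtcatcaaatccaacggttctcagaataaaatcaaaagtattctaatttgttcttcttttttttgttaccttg

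The other motifs searched in the same way were AAACCCTA, present in 3.48% of all promoters and in 11 of 54 large-subunit, 4 of 21 small-subunit and 7 of 31 biogenesis promoters; AAAATATCT, in 2.61% of all and 7 of 23 clock promoters; and ACGTG, in 23.7% of all, 4 of 7 storage and 7 of 8 late embryogenesis promoters. Genes with ACGTG had medians of 4.81 in the storage list and 2.80 in late embryogenesis, against 3.08 and 4.94 without it. Clock genes with AAAATATCT had a median of -0.04 and those without it -0.58. With AAACCCTA the medians were 0.64, 0.52 and 0.37 for large-subunit, small-subunit and biogenesis genes, against 0.53, 0.51 and 0.09 without it. AACGG can occur by chance in many promoters because it is short. A match describes letters and not binding.

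Flavonoid and anthocyanin enzyme genes were all above Col, with 8 of 13 measured at least 2-fold higher and a median of 1.41. The chalcone isomerase gene TT5 (AT3G55120) had 151 and 144 reads in Col, 492 in atprmt3 and 321 in rps2a2b, at 1.41 (1.21 to 1.63), and FLS1 (AT5G08640), for flavonol synthase, stood at 1.01. F3H (AT3G51240), an early step of the pathway, had 282 and 236 reads in Col, 535 in atprmt3 and 263 in rps2a2b. It stood 0.72 (0.55 to 0.90) above Col in atprmt3 and -0.07 from Col in rps2a2b, and the difference between the mutants was 0.79 (0.58 to 1.01). As a list, the enzymes were higher in both mutants, with an rps2a2b median of 1.05. Directly against rps2a2b, 6 were higher and 7 lower in atprmt3, with a median of -0.05. Among 8 measured regulators 1 was at least 2-fold higher, MYB111 (AT5G49330) at 1.70, and 1 lower, the repressor MYBL2 (AT1G71030) at -2.09, with a median of -0.19.

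Transcripts of the light-harvesting antenna were lower. Of 19 genes, all measured, 18 lay below Col, 6 were at least 2-fold lower and 0 higher, and the median was -0.56. LHCB1.5 (AT2G34420) had 212402 and 213604 reads in Col, 144592 in atprmt3 and 99229 in rps2a2b, at -0.88, and it was the largest loss in CPM of any gene. The trimer genes of photosystem II differed most, with LHCB1.1 at -1.69 and LHCB1.4 at -1.56, while the minor antenna genes LHCB4, LHCB5 and LHCB6 stood at -0.28, -0.38 and -0.37; these members were named after their values were seen, and LHCB1 copies share much sequence. Against rps2a2b, 17 of 19 were higher in atprmt3, with a median of 0.28 and 0 at least 1.5-fold apart. The summed list was below Col in both mutants, at 77098 CPM in Col, 48227 in atprmt3 and 39870 in rps2a2b.

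Light and shade genes had a median of -0.45, against -0.42 in rps2a2b, with 19 of 21 below Col and 4 at least 2-fold lower. HFR1 (AT1G02340) had 633 and 570 reads in Col, 169 in atprmt3 and 127 in rps2a2b, at -2.15 (-2.39 to -1.92). The growth regulators PIF4 (AT2G43010) and PIF5 (AT3G59060) stood at -1.02 and -1.17. Auxin response and transport genes had a median of -0.39, against -0.49 in rps2a2b, with 1 of 25 at least 2-fold lower and 0 higher. That was the repressor IAA2 (AT3G23030), with 674 and 648 reads in Col, 339 in atprmt3 and 437 in rps2a2b, at -1.28 (-1.46 to -1.11). Clock genes had a median of -0.26, against -0.50 in rps2a2b, with 2 of 23 at least 2-fold lower and 0 higher. PRR7 (AT5G02810) and GI (AT1G22770) stood at -0.83 and -0.66. Floral integrators and repressors had a median of -0.29 with 1 of 11 in each direction, the activator SOC1 (AT2G45660) at -1.66 and the repressor SMZ (AT3G54990) at 1.83. Over all measured genes 3.19% were at least 2-fold higher and 1.99% lower. Counts of 1 or 2 in lists this short are therefore no result about the list.

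Jasmonate genes had a median of 0.42, against 0.18 in rps2a2b, with 2 of 20 measured at least 2-fold higher and 0 lower. Those were the allene oxide cyclase genes AOC1 (AT3G25760), with 219 and 175 reads in Col, 1097 in atprmt3 and 727 in rps2a2b, and AOC2 (AT3G25770), at 2.15 and 1.15. The salicylic acid and defence list centred on 0.02, with 1 of 10 measured at least 2-fold higher, the transcription factor gene WRKY60 (AT2G25000) at 1.91. EDS5 (AT4G39030), a transporter needed for salicylic acid, had 77 and 83 reads in Col, 183 in atprmt3 and 84 in rps2a2b, at 0.87 (0.56 to 1.19). Wounding and touch genes had a median of 0.16 with 1 of 10 at least 2-fold higher, the calmodulin-like gene TCH3 (AT2G41100) at 1.58. Heat shock genes had a median of -0.31 over 7, with 0 at least 2-fold from Col. Beside the 3.19% of all measured genes at least 2-fold higher, counts of 1 or 2 in these lists are no result about them.

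Nitrate and sugar starvation genes had a median of -0.11, with 2 of 23 at least 2-fold higher and 4 lower, among the lower the asparagine synthetase gene ASN1 (AT3G47340) at -2.25 and the sugar-repressed gene DIN10 (AT5G20250) at -1.03. Mitochondrial and nucleolar stress genes had a median of 0.25, with 2 of 12 at least 2-fold higher and 0 lower, UGT74E2 (AT1G05680) at 2.44 and UPOX (AT2G21640) at 2.41. Over all measured genes the shares were 3.19% higher and 1.99% lower. Copper and redox genes had a median of 0.03 over 20, with 0 at least 2-fold from Col. In that list UCC2 (AT2G44790), for a copper-binding protein, had 500 and 478 reads in Col, 965 in atprmt3 and 353 in rps2a2b, and stood 0.66 above Col and 1.22 above rps2a2b.

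**Figure D5:**
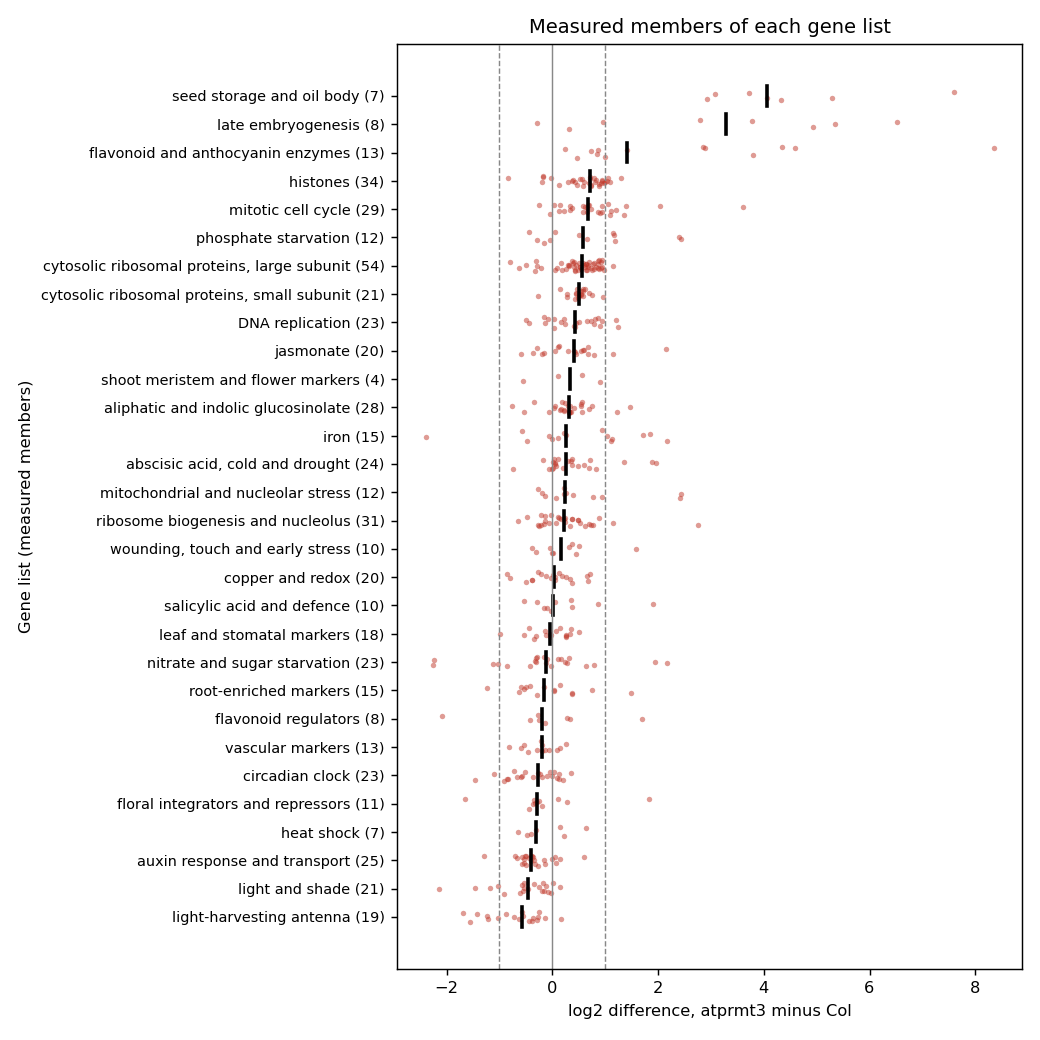
log2 difference of atprmt3 from Col for each measured member of the 30 gene lists, with 1 point for each gene, a black bar at the list median, a solid line at 0 and dashed lines at 2-fold. Seed and flavonoid lists lie furthest right, with medians of 4.05, 3.29 and 1.41, and light-harvesting antenna genes furthest left at -0.56.

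Markers of organs were used to check the whole-seedling label. Leaf and stomatal markers summed to 19773 CPM in Col, 21400 in atprmt3 and 16058 in rps2a2b, and root-enriched markers to 2939, 3174 and 3964, so both organs were present. Vascular markers summed to 704, 543 and 552 CPM. Medians of the measured leaf, root, vascular and shoot meristem markers were -0.03, -0.16, -0.20 and 0.33, over 18, 15, 13 and 4 genes. Of 50 such genes in all, 1 was at least 2-fold higher and 1 lower, both from the root list. EXP18 (AT1G62980), an expansin of root hairs, had 32 and 34 reads in Col, 117 in atprmt3 and 112 in rps2a2b. It was below 5 CPM in Col and passed the minimum through the mutant libraries. GL2 (AT1G79840), which represses root hair fate, had 370 and 397 reads in Col, 202 in atprmt3 and 232 in rps2a2b, at -1.24 (-1.48 to -1.02). RHS19 (AT5G67400), a root hair peroxidase, stood at 0.74, and the root hair regulators RHD6 and RSL4, below the minimum and named after their values were seen, at 1.42 and 1.17. Over all 15 measured root-enriched markers, 7 lay above and 8 below Col, with 2 at least 1.5-fold higher and 3 lower. In whole seedlings, fewer cells of a type and less RNA per cell cannot be told apart, and the part of organ makeup in any list was not tested.

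Seed genes made up most of those furthest above Col, when genes averaging 20 CPM or more were ranked. Of the 10 furthest, EM1, OLEO1, CRU3 and 5 genes annotated as late embryogenesis abundant proteins made up 8. The remaining ones were the beta-amylase gene BAM5 (AT4G15210), at 5.37, and AT3G01345, for an uncharacterized protein, at 6.41 from 4 and 9 Col reads to 740. All 10 were below 20 CPM in Col and reached that mean through the mutants. EM1, AT4G21020 and AT4G36600 reached it through rps2a2b alone, with 14.9, 10.7 and 10.8 CPM in atprmt3. Furthest below, after AT2G06845, were AT2G15880, for a leucine-rich repeat family protein, at -2.71 from 346 to 52.8 CPM, and AT2G39850, for a subtilisin-like protease, at -2.30. Also among the 10 furthest below were the metal reductase gene FRO6 (AT5G49730), at -2.06, and PMI15 (AT5G38150), for a protein annotated with plastid movement, at -1.97. PMI15 had 595 and 550 reads in Col, 182 in atprmt3 and 398 in rps2a2b, and differed from rps2a2b by -1.36. By amount, the largest gains after AT3G06365 were in CAT3 (AT1G20620), for catalase, THI1 (AT5G54770), for thiamine synthesis, RBCS3B (AT5G38410), for the small subunit of Rubisco, and EXT4 (AT1G76930), for the cell-wall protein extensin. THI1 and RBCS3B had 2496 and 4870 CPM in Col, 3474 and 5838 in atprmt3 and 2153 and 4089 in rps2a2b. The largest losses were in LHCB1 genes and in FAD2 (AT3G12120), for a fatty acid desaturase, from 4364 to 1742 CPM.

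Called genes lay on every chromosome. The share at least 2-fold higher ran from 2.77% on chromosome 1 (110 of 3967 genes) upward, with 94 of 2348 genes on chromosome 4, and the share lower from 1.70% on chromosome 4 to 2.57% on chromosome 2. Within 2 Mb of PRMT3, with PRMT3 left out, 24 of 733 measured genes were higher (3.27%) and 12 lower (1.64%), near the shares over all genes. In 1 Mb bins no bin held more than 2 genes set apart, and 9 of the 26 lower ones were on chromosome 2 (34.6%), which holds 15.1% of all measured genes. Runs of at least 3 neighbouring measured genes called in 1 direction numbered 4, all higher, the longest being 4 genes from AT4G12470 to AT4G12500 on chromosome 4. By kind of gene, 23 of 126 measured non-coding genes were at least 2-fold lower (18.2%), against 1.81% of 15053 protein-coding genes. The share was 18.5% for non-coding genes opposite a protein-coding gene and 18.2% for those on none. Their medians were -0.44 in atprmt3 and -0.34 in rps2a2b over all 126, so the lower level was seen in both mutants.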

How the data were processed

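Strand-specific mRNA libraries were made by the dUTP method from whole seedlings, per the labels' protocols. Per the submitters' processing notes, TopHat2, HTSeq, edgeR and the TAIR10 build were used; their versions, the read length and the strand setting are not given in the sources used here. The authors deposited raw counts, whole numbers of reads for each of 33341 genes, without normalization. The summary lines at the end of each file were left out: reads on no gene made up 1.37% to 1.80% of all reads, reads on more than 1 gene 2.25% (atprmt3), 2.38% (rps2a2b), 3.18% and 3.26% (Col), and reads with several alignments 6.74% to 7.16%.

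Counts were scaled with TMM factors (edgeR 4.0.16 in R 4.3.3) and expressed as CPM, with the Col libraries summed and 0.5 counts added for each library before a log2 ratio. A count of 3, the most that 0 observed reads allows, is 0.159 CPM in atprmt3. No significance test between genotypes was run, because every genotype had 1 sample; genes were called by fold. The fold calls were tested on simulated counts that held counting noise only, so that check says nothing about variation between plants. Alternatives were DESeq2 1.42.0 and other factors, other filters, folds and added counts, and single Col libraries.

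Names, positions, transcript lengths and promoters came from RefSeq TAIR10.1, which matched 33056 gene identifiers. The members and the 30 gene lists were chosen with earlier results of these data known. Of 707 list symbols 663 matched a gene. Ribosomal protein genes were limited to names with a eukaryotic suffix, which leaves out part of the family. Genes were named as follows: the 10 furthest from Col in each direction at a mean of at least 20 CPM; the 12 set apart furthest in each direction; genes gained or lost (0 Col reads, at least 30 in atprmt3 and at most 3 in rps2a2b, or at least 60 summed Col reads, at most 3 in atprmt3 and at least 30 in rps2a2b); up to 4 abundant members of each list at least 1.5-fold from Col; the PRMT and RPS2 genes; and the 5 largest gains and losses in CPM. Others were chosen after their values were seen.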

Additional observations from a re-analysis of the deposited data

How the results depend on the processing

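No paired analysis was possible because each mutant has a single library and shares fewer than 2 replicate numbers with Col. Other scaling factors, single Col libraries and 5 added counts kept the counts of genes at least 2-fold higher (452 to 581, main 487) and lower (230 to 318, main 303) within 1.5 times, and PRMT3 between -1.26 and -1.15. Without a Col library the counts were 502 and 502 higher, 307 and 315 lower, 7 and 10 set apart higher and 25 and 25 set apart lower. The filter moved them most: at a mean of at least 1 CPM they were 1253 higher, 810 lower, 80 set apart higher and 152 set apart lower; at 20 CPM 139, 105, 1 and 0; with every gene that had a count 2910, 2087, 758 and 355. A fold of 1.5 gave 1642, 1350, 124 and 210, and a fold of 3 gave 183, 54, 2 and 2. With the whole counting interval past the fold they were 280, 136, 2 and 4. Adding 5 counts left 15 genes set apart lower, dropping the condition on rps2a2b gave 14 set apart higher, and leaving out genes that overlap another gene, an alternative chosen after seeing the data, left 12 set apart lower. Fewer genes pass stricter rules by construction; with 5 added counts the cause was not tested. Total-count scaling moved the median of all genes to 0.06. Of 30 list medians over 7 settings, 7 of 210 values changed sign, and 0 of those belonged to a list whose median was past 1.5-fold. At a mean of at least 1 CPM the medians of 4 lists moved: flavonoid regulators from -0.19 to 0.14, iron from 0.26 to 0.77, salicylic acid and defence from 0.02 to 0.36, and mitochondrial and nucleolar stress from 0.25 to 0.65. Taking off the length-class medians, also chosen after seeing the data, moved copper and redox from 0.03 to -0.16, heat shock from -0.31 to -0.22 and the light-harvesting antenna from -0.56 to -0.75, beside the ribosomal protein and histone values given above. Median mean levels of the genes set apart were 8.39 CPM (lower) and 6.95 CPM (higher), against 24.1 CPM over all measured genes.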
